A study of Mus musculus with 8 samples.

Results

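The transcripts described here encode 4 subunits of NF-κB (Nfkb1, Nfkb2, Rela and Relb) and its inhibitors Nfkbia, Nfkbib and Tnfaip3. They also encode the atypical nuclear IκB protein Nfkbiz and a pair of cell-surface proteins whose genes NF-κB is known to activate (Icam1 and Cd274). The genes were chosen by symbol, and all 10 were found among the 19041 rows of the count table. Earlier results of these data were known at the choice. The study's text names Icam1 and Cd274 among genes up-regulated by oxidation in WT cells, and describes their expression as abrogated in C3S cells. Shares over all genes are therefore set beside the members as a description only. The RNA came from mouse embryonic fibroblasts (MEFs) of Stat3 fl/fl embryos, immortalised, in which Cre-Thy1.1 had removed the endogenous Stat3 gene, a deletion that all groups carry. A GFP vector then restored either WT-Stat3 (WT cells) or the redox-insensitive mutant Stat3-C3S (C3S cells), and each line was a polyclonal sorted population, so that line and Stat3 form cannot be told apart. Each line was left untreated (basal) or given 100 µM H2O2 for 2 h, with 2 libraries per group and 8 in all. The study's text describes them as biological replicates, but separate cultures are not stated in the labels, and p-values measure the spread between these libraries.

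NF-κB is a family of dimeric transcription factors held in the cytoplasm by IκB proteins. In the canonical pathway a kinase complex marks IκB for degradation and dimers containing Rela enter the nucleus. In the non-canonical pathway the Nfkb2 precursor is processed and partners Relb. NF-κB activates several of its own inhibitors, among them Nfkbia and Tnfaip3, which gives negative feedback. Fibroblasts use the pathway in responses to inflammatory cytokines and stress, and Stat3 is known to share target genes with it and to bind Rela.

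Promoter sequence was available here from RefSeq (GRCm38.p6) for 7 of the 10 members, in windows from 250 bases before to 50 bases after each start. Nfkb1, Relb and Nfkbiz had no entry. Both strands were searched for the κB consensus by name and for the SIE, the Stat-binding element TTCCNGGAA. The stretches below are shown because they carry the matches, which are in capitals. Each reads 5′ to 3′ on the strand of the gene.
Nfkb2, chr19:46304687-46304716, + strand, κB: gggatcgtcacGGGAATTCCCCccctcggg
Nfkbia, chr12:55492648-55492747, - strand, κB: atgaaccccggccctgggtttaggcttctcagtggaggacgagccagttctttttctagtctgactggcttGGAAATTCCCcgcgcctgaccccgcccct
Tnfaip3, chr10:19015516-19015545, - strand, κB: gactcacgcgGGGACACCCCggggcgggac
Tnfaip3, chr10:19015411-19015440, - strand, κB: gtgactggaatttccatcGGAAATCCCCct
Icam1, chr9:21015840-21015939, + strand, SIE: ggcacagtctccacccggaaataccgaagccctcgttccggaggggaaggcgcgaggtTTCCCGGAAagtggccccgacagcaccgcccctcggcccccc

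The capitals of Nfkb2 hold overlapping κB matches, and the same window had another at positions -11 to -2 from the start. Nfkb2 and Tnfaip3 have alternative starts. The other windows of Nfkb2 also held κB matches, but these windows overlap and hold a match in common. The other window of Tnfaip3 held no κB match. The κB consensus occurred in 8.46% of the 32851 promoter windows and at least 2 times in 1.22%. The SIE occurred in 1.15% of windows, and its match in Icam1 also has the letters of the wider GAS element TTCNNNGAA, found in 8.3%. In the windows of Rela, Nfkbib and Cd274 neither the κB consensus nor the SIE was matched. The Icam1 window held no κB match. A match describes letters only and shows neither binding nor a cause of the values that follow.

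Libraries held 17050016 to 22260814 expected counts, and all 10 fibroblast markers were detected in every library. The Stat3 transcript stood at 8516 and 8889 normalised counts in the WT basal libraries and at 5042 and 5187 in the C3S basal libraries. After H2O2 it stood at 7590 and 7482 in WT and at 4680 and 4820 in C3S libraries. The Stat3 level thus went with the line, and its part in the differences between lines was not tested. Genes with at least 1 count numbered 14483 to 15092 in basal libraries and 15775 to 16725 after H2O2. All values below are read counts normalised by library size factors. A gene passed the test when its edgeR p, adjusted over the 13538 genes tested, was under 0.05, and was called when it had also changed at least 2-fold.

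**Figure D1:**
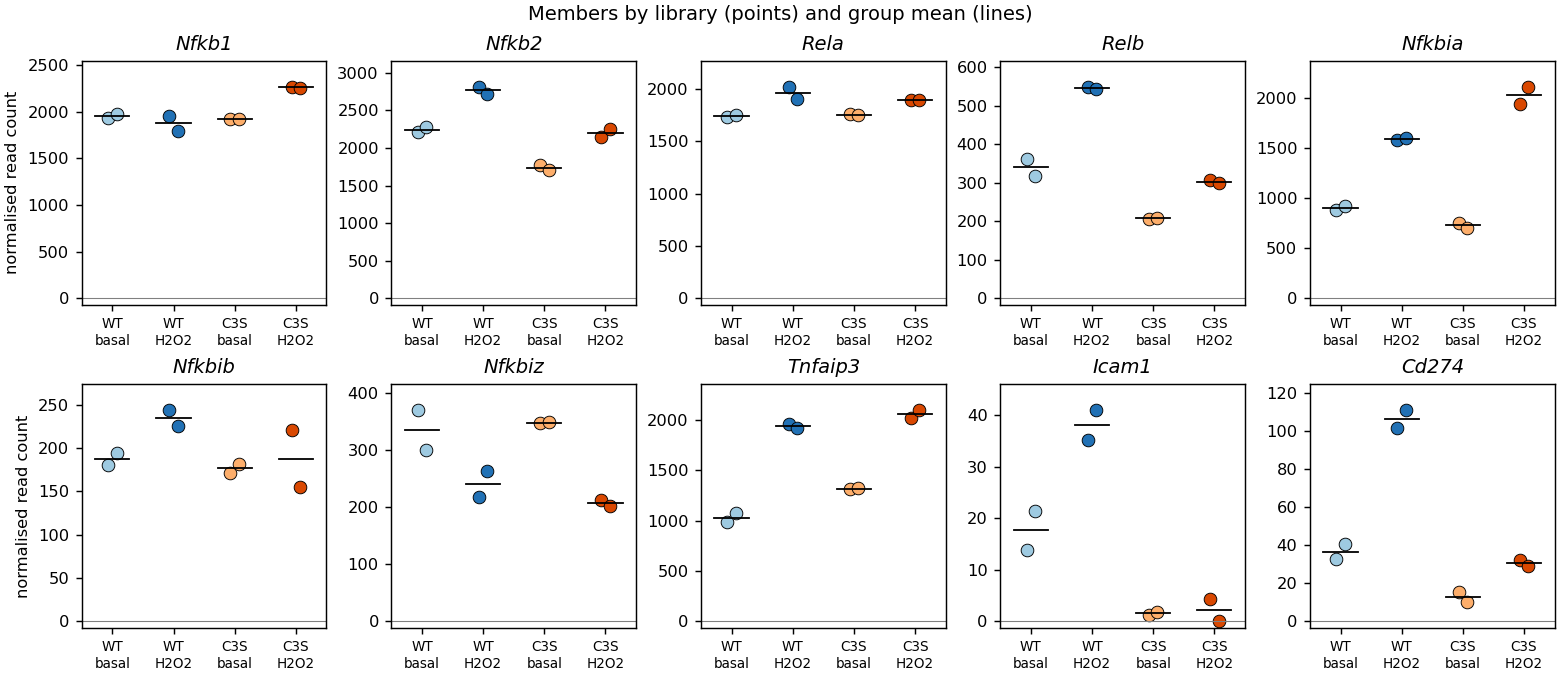
Normalised read counts of the 10 members in the 8 libraries. Each panel is a gene, points are libraries, horizontal lines are means of 2 libraries and each y axis includes 0. Nfkbia rose with H2O2 from 879 and 919 to 1587 and 1604 in WT cells and from 754 and 707 to 1944 and 2119 in C3S cells, and Icam1 stayed under 5 counts in the C3S libraries.

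H2O2 raised most of the members within 2 h, in both lines. In WT cells 8 of 10 passed as higher and only Nfkbiz as lower, against 18.3% and 25.8% of all genes tested, and Icam1 and Cd274 were called higher (background 7.63% called higher and 1.74% lower). In C3S cells 6 of 10 passed as higher and Nfkbiz again as lower, against 17.4% and 20.5%, and Nfkbia and Cd274 were called higher (7.19% and 1.48%). The median log2 fold change of the members was 0.51 in WT cells and 0.40 in C3S cells, with -0.01 over all genes in each. The basal libraries of each line are the controls of its own response, and the comparisons between lines use the same libraries.

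The lines differed at baseline in 6 of 10 members. Nfkb2, Relb, Nfkbia, Icam1 and Cd274 were lower in C3S cells and Tnfaip3 was higher, against 28.9% of all genes lower and 28.3% higher. Icam1 and Cd274 were called lower (background 9.39% called lower and 6.07% higher). After H2O2, 5 members were lower in C3S cells and Nfkb1 and Nfkbia were higher, against 32.0% and 32.4%, and the members called were again Icam1 and Cd274, as lower (10.7% and 7.8%). The median of the members was -0.19 at baseline and -0.27 after H2O2, beside -0.01 and -0.02 over all genes.

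Per kilobase of exon the order of levels was led by Rela, Nfkbia and Nfkb2 in basal cells. Lengths were those of all annotated exons merged, 12.061 kb for Nfkb1 and 3.072 kb for Rela, whichever transcripts were expressed. The order thus depends on the annotation. Without division by length, Nfkb1 was above Rela in WT basal cells (means 1954 and 1740 normalised counts). In WT basal cells Rela stood at 567 ± 5.73 normalised counts per kb (SD, n = 2) and Nfkbia at 558 ± 17.4, and their libraries overlapped. After H2O2 Nfkbia led, at 991 ± 7.71 per kb in WT cells and 1262 ± 76.8 in C3S cells, ahead of Rela at 638 ± 28.4 and 617 ± 1.30. Nfkb2 came next, at 603 ± 15.8 per kb in WT cells and 481 ± 16.4 in C3S cells after H2O2. Tnfaip3 and Nfkb1 followed Nfkb2 in every group, between 143 and 286 per kb over all groups. Relb, Nfkbib and Nfkbiz lay between 41.3 and 141 per kb. Relb and Nfkbib overlapped in WT basal and in C3S H2O2 libraries. Cd274 was next to last, from 3.51 per kb in C3S basal to 29.5 in WT H2O2 cells. Icam1 was last in every group, from 0.355 to 8.76 per kb. Apart from the overlaps named, neighbours in the order did not overlap between libraries.

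Among the subunits, Relb and Nfkb2 rose with H2O2 in both lines and were lower in C3S than in WT cells with and without it. Relb, on chromosome 7 from 19606217 to 19629438 (mm10, as for all gene positions), partners the processed Nfkb2 product. It had 363 and 317 normalised counts in WT basal libraries and 549.9 and 544 after H2O2. In C3S libraries it had 206 and 209 at baseline and 307 and 299.8 after H2O2, so that the treated C3S libraries lay below the untreated WT ones. The H2O2 response was 0.68 on the log2 scale in WT cells (SE 0.0889, adjusted p = 5.11e-10) and 0.55 in C3S cells (SE 0.112, adjusted p = 0.000654). Relb was lower in C3S cells, with a log2 difference of -0.71 at baseline (SE 0.115, adjusted p = 2.90e-07) and of -0.85 after H2O2 (SE 0.0909, adjusted p = 2.52e-12). The difference of the responses was -0.14 (interaction adjusted p = 0.599).

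Nfkb2 lies on chromosome 19 from 46304320 to 46312385 and encodes the precursor of the non-canonical pathway. It had 2214 and 2276 normalised counts in WT basal libraries and 2817 and 2714 after H2O2. The C3S libraries held 1769 and 1704 at baseline and 2152 and 2258 after H2O2. No groups overlapped except the WT basal and C3S H2O2 libraries. The response was 0.30 in WT cells (SE 0.0484, adjusted p = 2.00e-07) and 0.35 in C3S cells (SE 0.0505, adjusted p = 1.79e-05). The difference between lines was -0.37 at baseline (adjusted p = 2.83e-08) and -0.33 after H2O2 (adjusted p = 5.31e-09).

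Nfkb1, which encodes the other precursor subunit, lies on chromosome 3 from 135584655 to 135691547. Its basal libraries were close in all cases, with 1933 and 1974 normalised counts in WT and 1924 and 1926 in C3S cells (log2 difference -0.02, adjusted p = 0.772, or -0.12, adjusted p = 0.0448, with scaling by library totals only). After H2O2 it had 1953 and 1794 in WT cells and 2269 and 2258 in C3S cells. It rose in C3S cells, by 0.23 (SE 0.0477, adjusted p = 0.000638), while the value in WT cells was -0.06 (SE 0.0517, adjusted p = 0.370). The responses differed by 0.29 (SE 0.0711, interaction adjusted p = 0.00443). Without replicate 2 of the WT H2O2 group the difference was 0.23 (adjusted p = 0.064). After H2O2 Nfkb1 was higher in C3S than in WT cells by 0.27 (adjusted p = 1.75e-06), which was 0.09 (adjusted p = 0.088) when libraries were scaled by their totals only.

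Rela, the main activating subunit of the canonical pathway, lies on chromosome 19 from 5637483 to 5648130 and varied least. Its 8 libraries ran from 1728 to 2022 normalised counts. It rose in WT cells by 0.17 (SE 0.0517, adjusted p = 0.0044), but did not pass without replicate 1 of the WT H2O2 group (0.13, adjusted p = 0.180) or in DESeq2 (adjusted p = 0.0559). In C3S cells the value was 0.11 (adjusted p = 0.0781). The lines differed by 0.01 at baseline (adjusted p = 0.906) and by -0.05 after H2O2 (adjusted p = 0.378). With scaling by library totals only, Rela passed as higher with H2O2 in C3S cells (0.14, adjusted p = 0.0248) and as lower in C3S than in WT cells after H2O2 (-0.23, adjusted p = 4.95e-05).

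As a share of the per-kilobase sum of the 4 subunits, Relb made up 6.21 and 7.19% in WT basal libraries and 8.98 and 9.34% after H2O2. In C3S libraries its share was 4.53 and 4.66% at baseline and 5.84 and 5.61% after H2O2. Rela held the largest share in every library, from 41.2 to 49.3%. These shares rest on the same annotated exon lengths, and the long merged exons of Nfkb1 lower its share.

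**Figure D2:**
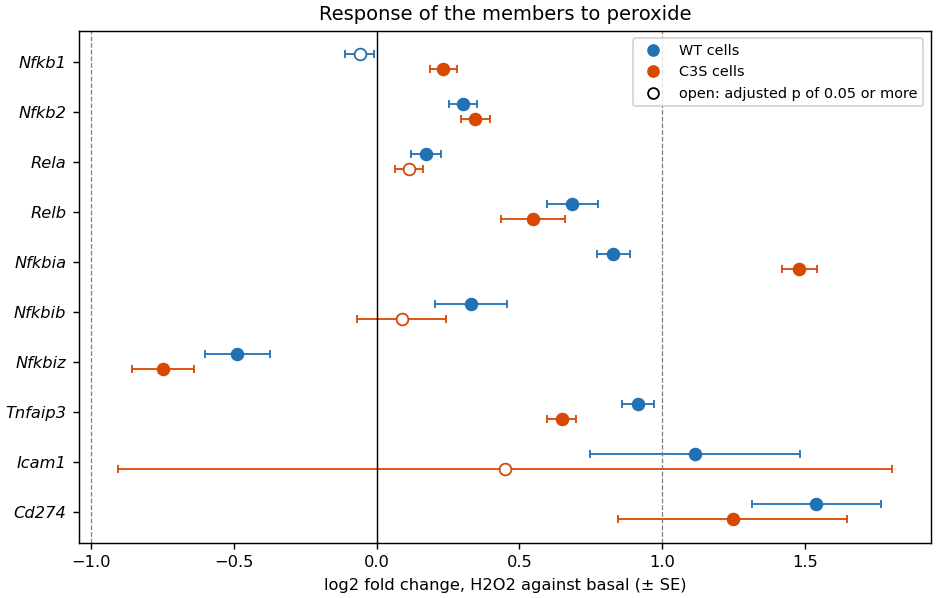
Log2 fold change of each member, H2O2 against basal, in WT cells and C3S cells, with SE bars from edgeR on 4 libraries per line. Filled points passed an adjusted p of 0.05 and dashed lines mark 2-fold. Nfkbia lies at 0.83 in WT and 1.48 in C3S cells, Nfkbiz is the member below 0 in both, and the bar of Icam1 in C3S cells spans 0.

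Among the inhibitors, Nfkbia and Tnfaip3 rose with H2O2 in both lines. The atypical IκB transcript Nfkbiz fell in both. Nfkbia encodes IκBα, the inhibitor that is resynthesised first after NF-κB activation, and lies on chromosome 12 from 55489410 to 55492647. It had 879 and 919 normalised counts in WT basal libraries and 754 and 707 in C3S basal libraries. After H2O2 it had 1587 and 1604 in WT cells and 1944 and 2119 in C3S cells. C3S libraries were thus the lowest before and the highest after treatment, with no overlap between groups. The response was 0.83 in WT cells (SE 0.0577, adjusted p = 1.13e-21) and 1.48 in C3S cells (SE 0.0614, adjusted p = 3.37e-13). C3S cells were lower at baseline (log2 difference -0.30, SE 0.0695, adjusted p = 0.000177) and higher after H2O2 (0.35, SE 0.0503, adjusted p = 1.73e-08). The responses differed by 0.65 (SE 0.0843, interaction adjusted p = 8.02e-07), beside 9.18% of all genes with a higher response in C3S cells. The responses of Nfkb1 and Tnfaip3 also differed, and each of these differences was under 2-fold, where 1.0% of all genes were called with a higher and 0.414% with a lower response.

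Tnfaip3, a ubiquitin-editing enzyme that ends signalling upstream of the IκB kinases, lies on chromosome 10 from 19000910 to 19015657. It had 990.2 and 1073 normalised counts in WT basal libraries and 1314 and 1322 in C3S basal libraries. After H2O2 the lines were close, with 1960.4 and 1924 in WT cells and 2025 and 2105 in C3S cells. The response was 0.91 in WT cells (SE 0.0556, adjusted p = 7.08e-25) and 0.65 in C3S cells (SE 0.0514, adjusted p = 5.40e-09). C3S cells were higher at baseline by 0.36 (SE 0.0611, adjusted p = 1.23e-06), and the difference after H2O2 was 0.09 (adjusted p = 0.100), or -0.09 with scaling by library totals only. The responses differed by -0.27 (SE 0.0760, interaction adjusted p = 0.0158), beside 3.38% of all genes with a lower response in C3S cells. That difference did not pass in DESeq2 (adjusted p = 0.072) or without WT basal replicate 1 (-0.21), WT H2O2 replicate 1 (-0.25), C3S basal replicate 2 (-0.26) or C3S H2O2 replicate 1 (-0.24). For Nfkb2, Rela, Nfkbib and Nfkbiz the difference of the responses was 0.04, -0.06, -0.24 and -0.26, with interaction adjusted p from 0.346 to 0.750.

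**Figure D3:**
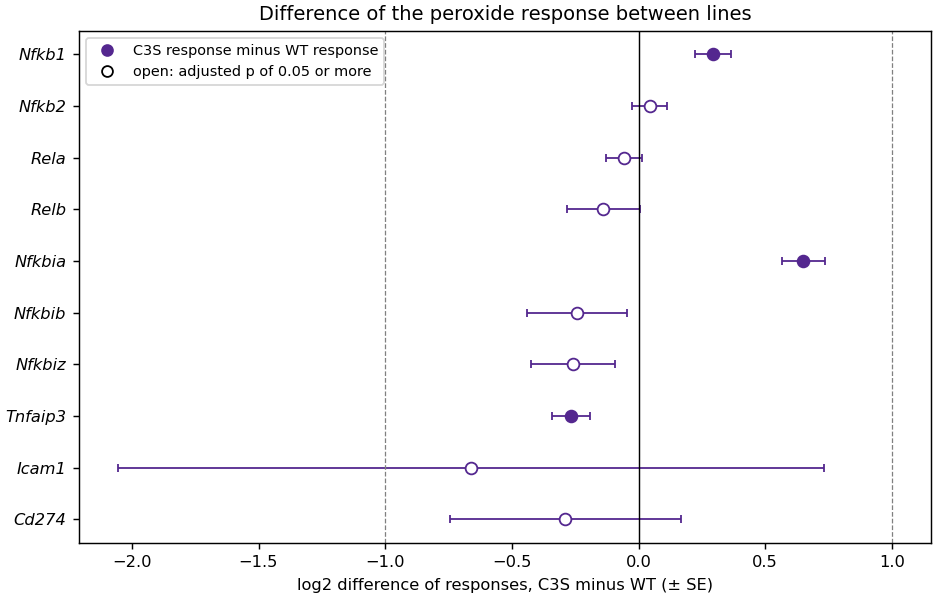
Difference of the H2O2 response between lines, C3S minus WT, on the log2 scale with SE bars, from edgeR on 8 libraries. Filled points passed an adjusted p of 0.05 and dashed lines mark 2-fold. Nfkbia at 0.65 and Nfkb1 at 0.29 lie above 0 and Tnfaip3 at -0.27 below it, and the bars of Icam1 and Cd274 span 0.

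Nfkbiz encodes an atypical nuclear IκB protein that regulates a subset of NF-κB targets and lies on chromosome 16 from 55811375 to 55838899. It had 371 and 300.5 normalised counts in WT basal libraries and 217 and 264 after H2O2. In C3S libraries it had 347 and 349 at baseline and 213 and 201 after H2O2. Treated libraries were below untreated ones in each line. It fell by 0.49 on the log2 scale in WT cells (SE 0.113, adjusted p = 0.000253) and by 0.75 in C3S cells (SE 0.109, adjusted p = 1.78e-05). The difference between lines was 0.05 at baseline (adjusted p = 0.719) and -0.21 after H2O2 (adjusted p = 0.136), or -0.39 (adjusted p = 0.0053) with scaling by library totals only.

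Nfkbib encodes IκBβ, which binds similar dimers to IκBα, and lies on chromosome 7 from 28758251 to 28767512. Its libraries ran from 154 to 244 normalised counts, and the C3S H2O2 libraries, at 221 and 154, were the farthest apart. It rose in WT cells by 0.33 (SE 0.126, adjusted p = 0.0262) and had a value of 0.09 in C3S cells (adjusted p = 0.696). The C3S libraries were lower after H2O2 (log2 difference -0.32, adjusted p = 0.0341). Neither passed in DESeq2 (adjusted p = 0.208 and 0.205). The value in WT cells also did not pass without WT basal replicate 1 (adjusted p = 0.129) or WT H2O2 replicate 1 (0.212), nor did the difference between lines without WT H2O2 replicate 1 (0.282), WT H2O2 replicate 2 (0.112) or C3S H2O2 replicate 2 (0.622).

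Icam1 and Cd274 had the lowest levels of the 10 members and the largest differences between lines. Icam1, an adhesion molecule that binds leukocyte integrins, lies on chromosome 9 from 21015985 to 21028817. Its WT basal libraries had 13.9 and 21.4 normalised counts and its WT H2O2 libraries 35.2 and 41.1. Its C3S libraries had 1.20 and 1.89 at baseline and 4.40 and 0 after H2O2. Every C3S library lay below every WT library. These rest on few reads, with 34 counts over the WT basal libraries, 93 over WT H2O2, 3 over C3S basal and 4 over C3S H2O2. The ratio of WT to C3S cells was 11.0 at baseline (exact 95% counting interval 3.47 to 56.1) and 17.2 after H2O2 (6.49 to 64.4). The fitted difference was -3.36 (SE 0.773, adjusted p = 0.000167) and -4.03 (SE 0.604, adjusted p = 4.82e-08).

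With H2O2 Icam1 rose in WT cells by 1.11 (SE 0.366, adjusted p = 0.00946), a count ratio of 2.18 (1.45 to 3.32). The call was lost without WT basal replicate 1 (0.83, adjusted p = 0.113), without WT H2O2 replicate 2 (1.00, adjusted p = 0.0863) and in DESeq2 (adjusted p = 0.113). In C3S cells the ratio was 1.40 with an interval of 0.236 to 9.52, so that a change of the size seen in WT cells was not detectable at this depth. The responses differed by -0.66 with an SE of 1.39 (interaction adjusted p = 0.822).

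Cd274 encodes the ligand of the inhibitory T-cell receptor PD-1 and lies on chromosome 19 from 29367455 to 29388095. It had 32.8 and 40.7 normalised counts in WT basal libraries and 102 and 111 after H2O2. In C3S libraries it had 15.4 and 10.0 at baseline and 32.3 and 29.2 after H2O2, so that treated C3S cells did not exceed untreated WT cells. It rose by 1.54 in WT cells (SE 0.225, adjusted p = 1.74e-08) and by 1.25 in C3S cells (SE 0.400, adjusted p = 0.0184). The rise in C3S cells was lost without C3S basal replicate 2 (0.96, adjusted p = 0.176), without C3S H2O2 replicate 1 (1.18, adjusted p = 0.0558) and in DESeq2 (adjusted p = 0.143). C3S cells were lower, with a log2 difference of -1.51 at baseline (SE 0.395, adjusted p = 0.000838) and of -1.80 after H2O2 (SE 0.238, adjusted p = 1.68e-09). The responses differed by -0.29 with an SE of 0.457 (interaction adjusted p = 0.755).

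**Figure D4:**
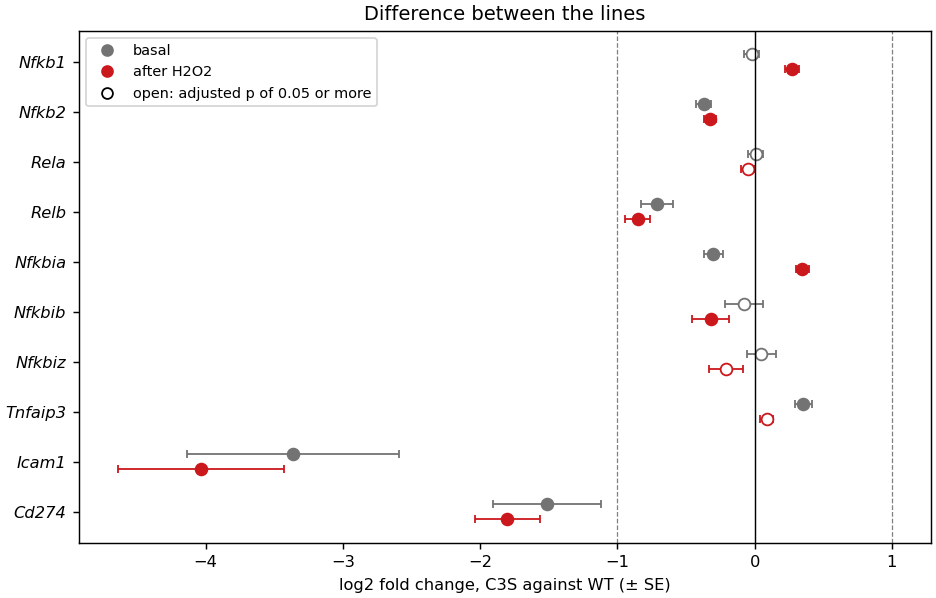
Log2 fold change of each member, C3S against WT cells, in basal libraries and after H2O2, with SE bars from edgeR on 4 libraries per comparison. Filled points passed an adjusted p of 0.05 and dashed lines mark 2-fold. Icam1 (-3.36 and -4.03) and Cd274 (-1.51 and -1.80) lie past 2-fold, and Nfkbia changes side, from -0.30 at baseline to 0.35 after H2O2.

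Leukocytes and epithelial cells also express Icam1 and Cd274, and markers of both moved with the groups. Of 10 leukocyte markers 9 were in the table, with a summed level of 27.4 to 72.8 normalised counts in basal libraries and 125 to 170 after H2O2. Ptprc, the pan-leukocyte marker, was at 0 to 3.36 in all libraries, and Cd53 was at 0 in all but 1. Itgam went from 0 to 1.89 in basal libraries to 42.0 to 78.1 after H2O2. The 6 epithelial markers summed to 522 to 672 in WT libraries and 32.7 to 78.6 in C3S libraries, and Epcam was at 8.81 or less. The 5 endothelial markers in the table summed to 85.5 to 108 in WT and 214 to 249.7 in C3S libraries, mostly Kdr (75.2 to 107 and 177 to 245). Pecam1 instead went from 0 to 0.994 in basal libraries to 17.6 to 27.2 after H2O2. The part of these markers, and of the larger number of genes detected after H2O2, in the values of Icam1 and Cd274 was not tested. In bulk RNA, fewer cells with a transcript and less transcript per cell cannot be told apart.

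Other genes of the pathway were taken from lists. Of the other subunits and IκB proteins, 5 of 6 were tested. Nfkbie, which encodes IκBε, was lower in C3S cells at baseline (49.1 ± 3.84 against 283 ± 19.1 normalised counts, SD, n = 2, log2 difference -2.53). Bcl3, an atypical IκB protein, (-2.09) and Rel, the remaining activating subunit (-1.11), were also lower, so that 3 of 5 were called lower (9.39% of all genes), and the list median was -1.11 against -0.01 over all genes. With H2O2, Nfkbil1 passed in WT cells and Nfkbil1 and Rel in C3S cells, as higher and each by less than 2-fold (named after their values were seen). Of the 13 kinases of the IκB kinase complex and upstream of it, 2 passed as higher and 4 as lower in each line with H2O2. All changed by less than 2-fold, and shares over all genes were 18.3% and 25.8% in WT cells and 17.4% and 20.5% in C3S cells. Only Ikbkg passed in the same direction in both lines, and Map3k14 passed as higher in WT and lower in C3S cells (named after their values were seen). In the interaction 4 of 13 passed with a higher and 2 with a lower response in C3S cells (9.18% and 3.38% of all genes). Of 28 receptors and adaptors upstream of NF-κB, 27 were tested, and with H2O2 4 passed as higher and 7 as lower in WT cells and 4 and 4 in C3S cells, near or below the shares over all genes (18.3% and 25.8%, 17.4% and 20.5%). After H2O2 the TNF receptor Tnfrsf1b was lower in C3S than in WT cells (-1.47), and Il1rap, the accessory chain of the interleukin-1 receptor, was higher (1.00), close to the 2-fold limit.

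Of 38 listed NF-κB target genes other than Icam1 and Cd274, 27 were tested. With H2O2, 10 passed as higher and 7 as lower in WT cells, and 8 and 7 in C3S cells, with medians of 0.13 and 0.08. Shares over all genes were 18.3% and 25.8% in WT cells and 17.4% and 20.5% in C3S cells. In WT cells 2 were called higher and 1 lower (7.63% and 1.74% of all genes). In C3S cells 4 were called higher and 2 lower (7.19% and 1.48%). Cxcl5 was called lower in both lines (-1.09 in WT cells, and from 57.7 to 25.5 normalised counts in C3S cells). Cxcl1 was called lower in C3S cells (-1.07) and passed as lower in WT cells. Ccl7 went from 105 to 163 normalised counts in WT cells and from 126 to 68.1 in C3S cells, and its responses differed by -1.51. Lif, a cytokine that activates Stat3, rose in WT cells by 1.37 (296 to 763 normalised counts) and in C3S cells by 2.54 (121 to 709). Its responses differed by 1.17. Lif was called lower in C3S cells at baseline, and its difference between lines after H2O2 did not pass. At baseline 10 of 27 were called lower in C3S cells (9.39% of all genes), led by the complement component C3 (-3.53) and the collagenase Mmp13 (-2.90). Ptgs2, the inducible cyclooxygenase, was higher in C3S cells by 1.74 at baseline and by 2.23 after H2O2. Of the other inhibitors of NF-κB signalling, 16 of 17 were tested. Tnip1, a partner of Tnfaip3, was lower in C3S cells at baseline (-1.24), and Pdlim2, which promotes turnover of Rela, was higher (1.29). Trib3, a stress-induced pseudokinase, rose with H2O2 in C3S cells by 2.48, and its responses differed by 1.54.

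Of the relatives and ligands of Icam1, 9 of 10 were tested. With H2O2, 4 of 9 were called higher in WT cells and 3 of 9 in C3S cells (7.63% and 7.19% of all genes). These were Icam5, Itgal, Itgam and Itgax in WT cells and Itgal, Itgam and Itgax in C3S cells (named after their values were seen). Their means were below the level set for naming listed genes, so that these calls rest on low counts. Itgam had 0 to 1.89 normalised counts in basal libraries and 42.0 to 78.1 after H2O2. Alcam, an adhesion molecule of activated leukocytes, was called lower in WT cells (-1.02) but not with TMM scaling. Mcam, of the same immunoglobulin family, was lower in C3S cells at baseline (log2 difference -1.34). Of 10 relatives and partners of Cd274, 4 were tested, and Cd80 was the only gene called in the comparisons run, as higher in C3S cells after H2O2 (named after its value was seen). Interferon-γ is the classical inducer of Cd274, and all 11 listed genes of its signalling were tested. The receptor chain Ifngr2 and the transcription factor Irf1 were lower in C3S cells at baseline (-1.22 and -1.54) and after H2O2 (-1.09 and -1.25). At baseline 2 of 11 were called lower and 1 higher (9.39% and 6.07% of all genes). After H2O2, 4 were called lower and 0 higher (10.7% and 7.8%). Ifngr1 and Jak1 passed as higher in C3S cells in both comparisons, each by less than 2-fold (named after their values were seen). With H2O2, 4 of 11 passed as lower in WT cells and 3 of 11 in C3S cells, beside 25.8% and 20.5% of all genes.

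**Figure D5:**
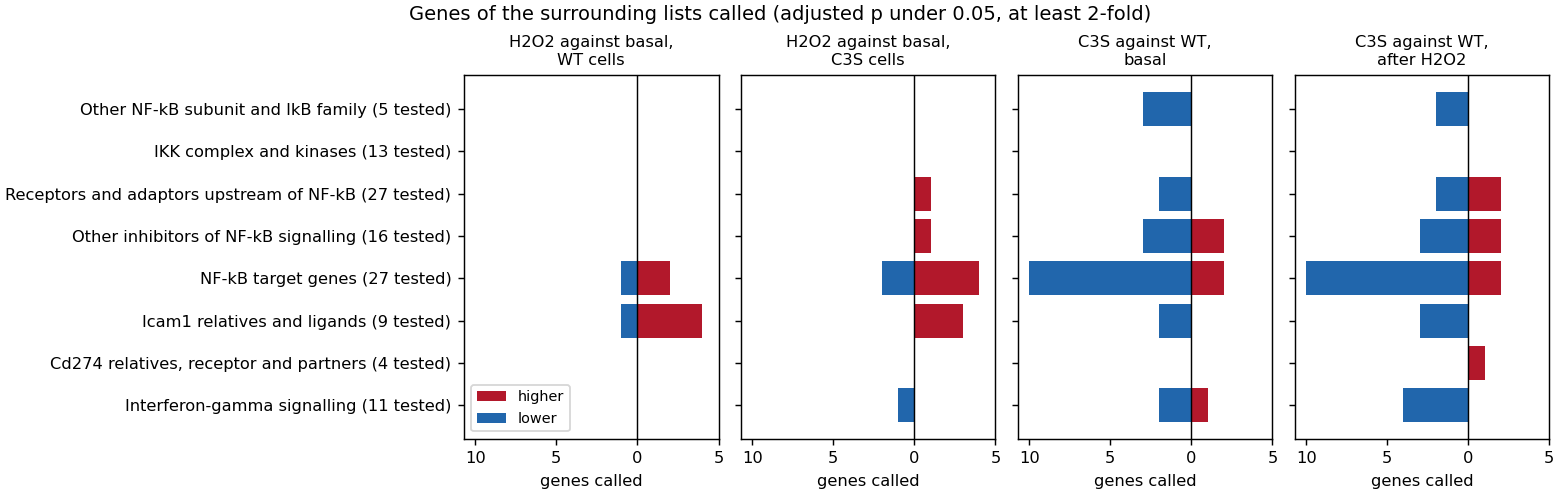
Number of genes called in each list (adjusted p under 0.05 and at least 2-fold) in the 4 comparisons. Bars to the right are genes higher and bars to the left genes lower, both from 0, with the number tested beside each list. The longest bars are the 10 of 27 target genes lower in C3S cells, at baseline and after H2O2.

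The genes whose pattern over the 8 libraries was closest to that of a member were ranked by the root-mean-square distance of centred log2 values, a description with no test. Nearest to Nfkbia were Pmaip1 (distance 0.105), Gm4262 (0.133) and Ppp1r10 (0.134), and the closest member was Tnfaip3 at rank 106 of 10817. Nearest to Cd274 were Zfp457 (0.252), 2410018M08Rik (0.311) and H2-T23 (0.334), with Relb the closest member at rank 56 of 10818. Nearest to Icam1 were Mst1r (0.540), Fzd3 (0.572) and Plscr2 (0.589), with Relb the closest member at rank 775. The points share 4 groups and their libraries, and the low counts of Icam1 limit its ranking.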

How the data were processed

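Directional single-end RNA libraries of MEFs were sequenced. The authors trimmed reads with Scythe and Sickle (study's methods), aligned them to mm10 with TopHat2 2.0.10 and deposited expected counts (estimated counts over exons from uniquely mapped reads). A second deposited sheet holds the same values as a signal divided by 1 size factor per library, and was used only to check this. Which program counted, and with what strand setting, is not given in the sources used here. Thus Nfkb1, Nfkb2, Nfkbib, Icam1 and Cd274, which overlap other genes in GENCODE M21, are uncertain to that extent. A further 24 columns of values per group were not used.

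Expected counts were rounded, and genes were tested where the mean of at least 1 group reached 10 (13538 tested, 5503 left out). Scaling used median-of-ratios size factors. Differences were tested by quasi-likelihood in edgeR 4.0.16 (R 4.3.3), fitted on the 4 libraries compared, or on all 8 for the interaction of line and H2O2 (C3S minus WT), with Benjamini-Hochberg adjustment over all genes tested. The SE is the log2 fold change divided by the square root of F. Counting intervals cover counting error only. The fit was tested on simulated data. Alternatives were TMM, library totals only, other filters, DESeq2 1.42.0, no minimum fold, a replicate block, 1 fit of all 8 libraries and leaving out each library.

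All 10 members were named, and from each list at most 3 called genes per comparison, those with the largest fold and a mean of at least 100 in the higher group. Genes outside this rule are marked in the text as named after their values were seen. The genes nearest to a member by pattern needed a mean of at least 50. The members and lists were chosen with earlier results of these data known.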

Additional observations from a re-analysis of the deposited data

Results flagged for a closer look

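The H2O2 response differed between the lines for 3 members, by the interaction test in edgeR on 8 libraries. Among all genes tested, 9.18% passed with a higher and 3.38% with a lower response in C3S cells. For Nfkbia the difference, C3S minus WT, was 0.65 on the log2 scale (adjusted p = 8.02e-07). For Nfkb1 it was 0.29 (adjusted p = 0.00443), and 0.23, which did not pass, without replicate 2 of the WT H2O2 group. For Tnfaip3 it was -0.27 (adjusted p = 0.0158), which did not pass in DESeq2 (adjusted p = 0.072). All were under 2-fold.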

How the results depend on the processing

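Of 580 values of members under alternatives, 542 kept their direction and side of the threshold, 22 no longer passed, 4 passed only under the alternative (all with scaling by library totals only) and 12 changed sign. The numbers called at 2-fold were 2 each for the H2O2 responses and line comparisons. DESeq2 called 1 in WT and 1 in C3S cells, and leaving out libraries gave 1 to 2 in each. Scaling by library totals only called 3 in WT cells and 3 between lines after H2O2. With no minimum fold 9 and 7 passed for H2O2 in WT and C3S cells, 6 and 7 for the lines at baseline and after H2O2, and 3 for the interaction. DESeq2 passed 6 in WT cells and 2 in the interaction by adjusted p alone, and leaving out libraries gave 7 to 9 and 2 to 3.

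Scaling by totals only moved the median of all genes to -0.11 between lines at baseline and to -0.20 after H2O2. It turned Nfkb1 in WT cells to 0.052, Rela and Nfkbiz between lines at baseline to -0.090 and -0.051, Tnfaip3 after H2O2 to -0.093 and Nfkb2 in the interaction to -0.037. Leaving out single libraries gave ranges through 0 for Nfkb1 in WT cells (-0.12 to 9.77e-06), for Nfkbib and Icam1 in C3S cells (-0.19 to 0.32 and -3.68 to 1.40), for Rela and Nfkbiz at baseline (-0.0013 to 0.019 and -0.092 to 0.21), and for Icam1 and Cd274 in the interaction (-4.92 to 0.29 and -0.58 to 0.0016). None of these sign changes passed the test in either form, and their cause was not tested. Of 928 counts over lists, 29 moved by over 1.5 times.

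Same-numbered libraries had correlations of deviations between -0.01 and 0.17 over group pairs, so the numbers were not taken as pairs. With the replicate block the members called stayed at 2 in each H2O2 and line comparison, and 9, 7, 6, 7 and 3 passed by adjusted p alone. With 2 libraries a group, depth limits Icam1 most.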
